A study of Mus musculus with 2 samples.

Results

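The genes described here are 4 that govern cell death (Cycs, Bcl2l1, Apaf1 and Ripk1) and 4 of antioxidant defence (Txn1, Nfe2l2, Sod1 and Sod2), in a CUT&Tag experiment with an antibody against the small GTPase Rac1 in mouse retina. They were chosen by name with their peaks known, and every peak that the authors had assigned to one of these names was taken. This gave 11 peaks, 7 in the control list and 4 in the list from hypertensive retina, of 4789 peaks in both lists. In CUT&Tag an antibody bound in nuclei tethers the Tn5 transposase, which inserts sequencing adapters at the site, so a peak marks a stretch where insertions piled up. The 2 libraries came from retinas of wild-type C57BL/6 mice 7 weeks old, 1 from mice that had received no treatment and 1 from mice after 1 week of chronic ocular hypertension (COH), where raised eye pressure injures retinal ganglion cells as in glaucoma. The labels do not say how many retinas or animals each library held, nor how the pressure was raised. With 1 library per group nothing was tested between the conditions, and values are set side by side without p-values.

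Cytochrome c, the product of Cycs, carries electrons in the respiratory chain and, once it leaks from mitochondria, joins Apaf1 to form the apoptosome that activates caspases. Bcl2l1 encodes Bcl-xL, which holds the mitochondrial outer membrane closed, and Ripk1 encodes the kinase at the branch point between survival, apoptosis and necroptosis below the TNF receptor. Nfe2l2 encodes Nrf2, the transcription factor that drives antioxidant genes through antioxidant response elements. Txn1 encodes the cytosolic thioredoxin that reduces oxidised proteins, and Sod1 and Sod2 encode the cytosolic and the mitochondrial superoxide dismutase. Retinal ganglion cells die largely by mitochondrial apoptosis after axon injury, and oxidative stress is a known part of glaucoma models.

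The control peaks of Cycs, Apaf1, Txn1 and Sod1 each spanned the whole 250 bp before the start of the gene, so these 4 stretches are shown as promoter sequence that lay under a peak. They are RefSeq sequences of GRCm38.p6, 5′ to 3′ on the strand of the gene, ending at the base before the gene start. Cycs lies at chr6:50566570-50566819 (minus strand), Apaf1 at chr10:91082744-91082993 (minus), Txn1 at chr4:57956412-57956661 (minus) and Sod1 at chr16:90220512-90220761 (plus). Capitals mark any match to the 8 motifs that were searched, on both strands.
Cycs: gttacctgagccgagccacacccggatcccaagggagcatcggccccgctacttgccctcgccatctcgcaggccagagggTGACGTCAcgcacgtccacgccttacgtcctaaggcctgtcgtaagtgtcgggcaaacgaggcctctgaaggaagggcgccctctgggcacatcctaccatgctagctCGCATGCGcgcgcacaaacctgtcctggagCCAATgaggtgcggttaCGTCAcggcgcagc
Apaf1: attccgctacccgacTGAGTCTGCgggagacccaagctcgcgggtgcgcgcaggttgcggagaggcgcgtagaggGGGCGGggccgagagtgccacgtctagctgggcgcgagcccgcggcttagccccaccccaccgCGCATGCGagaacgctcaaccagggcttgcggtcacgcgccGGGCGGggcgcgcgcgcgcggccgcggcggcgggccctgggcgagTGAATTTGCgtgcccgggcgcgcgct
Txn1: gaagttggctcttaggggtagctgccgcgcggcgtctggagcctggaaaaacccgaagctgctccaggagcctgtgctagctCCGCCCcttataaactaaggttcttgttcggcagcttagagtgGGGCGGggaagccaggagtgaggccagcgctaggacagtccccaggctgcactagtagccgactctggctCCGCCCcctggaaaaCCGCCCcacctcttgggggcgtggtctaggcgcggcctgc
Sod1: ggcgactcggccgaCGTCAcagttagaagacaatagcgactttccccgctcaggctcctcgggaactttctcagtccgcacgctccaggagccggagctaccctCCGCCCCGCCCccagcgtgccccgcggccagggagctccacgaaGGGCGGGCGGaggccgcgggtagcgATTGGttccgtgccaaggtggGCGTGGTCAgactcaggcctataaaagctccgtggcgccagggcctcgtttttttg
The gene starts of the peak lists and of RefSeq were taken as the same here. The gene lengths in the 2 sources differed by 31 bp for Cycs, 27 bp for Apaf1, 0 bp for Txn1 and 4 bp for Sod1. The positions in the peak lists are of a build that is not settled, since the submitters' processing notes name mm9 while the gene positions in the lists differed from GRCm38.p6 for all of these genes but Txn1.

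Cycs and Apaf1, the pair that builds the apoptosome, shared the NRF1 core CGCATGC, which overlaps its own reverse complement in both and so matched on both strands. NRF1 is a factor known for driving nuclear genes of mitochondrial respiration. The core was found in 2 of the 8 genes and in 3.02% of the 32851 RefSeq promoter windows of 250 bp. The GC box GGGCGG, bound by Sp1, was in 6 of the 8 (Apaf1, Ripk1, Txn1, Nfe2l2, Sod1 and Sod2) and in 32.7% of all windows. Txn1, Sod1 and Sod2 each held it 4 times. The CCAAT box (CCAAT) was in Cycs, Sod1 and Sod2 and in 33.8% of windows. The CRE half-site (TGACG) was in Cycs, with 3 matches of which 2 form 1 palindrome, and in Sod1, and in 17.8% of windows. The ETS site CCGGAAG was in Nfe2l2 alone and in 6.91% of windows. A loose form of the antioxidant response element core, TGANNNNGC, leaves the base after TGA free. It was in Nfe2l2 and Sod1 but also in Apaf1 and Ripk1, and in 35.2% of windows. The usual core has C after TGA, which holds for the matches in Nfe2l2 and Sod1 and for none in Apaf1 or Ripk1. The share of windows with that stricter core was not counted. The E-box CACGTG and the AP-1 site TGANTCA were in none of the 8 windows, against 6.02% and 6.75% of all. Cycs had 23 CpG dinucleotides in its window and Apaf1 42, against a median of 6 over all windows. Bcl2l1 had the fewest of the 8, with 12, and held none of the motifs. For Bcl2l1 and Ripk1, with 3 and 2 starts in the table, the window farthest upstream was used. These matches describe letters only. The GC box and the NRF1 core contain a CpG themselves, and their shares among windows as rich in CpG as these were not counted. With the gene starts taken as the same, the control peak of Nfe2l2 covered 72.4% of its window, at gene lengths that differed by 22 bp. For Bcl2l1, Ripk1 and Sod2 the gene lengths differed by 24011, 1839 and 22937 bp, so how far their peaks reach into these windows is not known.

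By its nearest edge, each of the 11 peaks lay within 1000 bp of the gene start of the lists. The COH peak of Bcl2l1 began 79 bp after that start. The COH peak of Sod2 began 685 bp after it, with the summit at 1035 bp. The authors' annotation placed 9 in promoters within 1 kb and 2, the COH peaks of Bcl2l1 and Sod2, in 5' untranslated regions. Those 9 covered the transcription start site (TSS) itself. Of all control peaks within 1000 bp of a TSS, 63.6% did so, and of such COH peaks 59.8%. None of the genes described here had more than 1 peak in a list. The lists held 3078 control peaks on 2893 genes and 1711 COH peaks on 1593, so 1 peak per gene was the rule. Among all genes with a control peak, 65.2% had one within 1000 bp of the TSS, and among genes with a COH peak 54.7%.

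**Figure D1:**
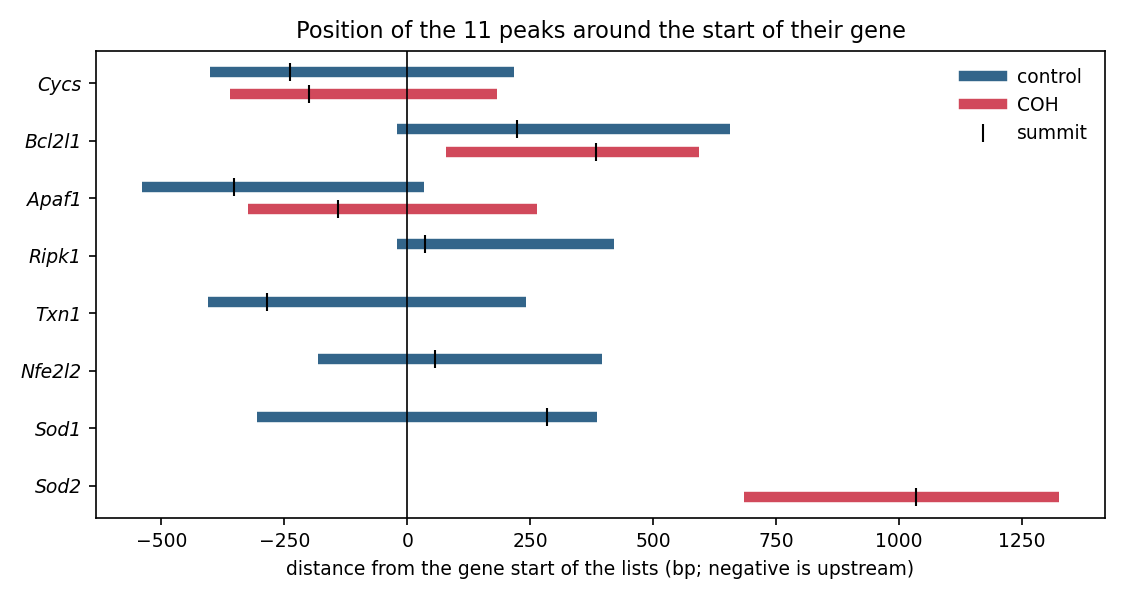
Spans of the 11 peaks in bp from the gene start of the lists (negative is upstream, drawn in the direction of the gene); blue bars are control peaks, red bars COH peaks and ticks their summits. The 3 genes with bars of both colours are Cycs, Bcl2l1 and Apaf1, and Sod2 has a red bar and no blue one, starting 685 bp inside the gene.

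Cycs had a peak at the same place in both retinas. In control it lay on chromosome 6 at 50543300 to 50543920, with the summit at -239 bp from the TSS (negative values lie upstream). In COH it lay at 50543336 to 50543878, inside the control peak, with the summit at -199. The pileup, the authors' height of stacked fragments with a scaling that is not stated, came to 24 in control and 17 in COH. The fold enrichment over background was 7.16 in control and 6.62 in COH. The peak caller gave it a -log10 p of 16.3 in control and 12.3 in COH. It had a higher fold than 85.1% of the control list and 73.4% of the COH list, and so was the member of highest fold in each.

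Bcl2l1 had its peak just inside the gene in both retinas. The control peak lay on chromosome 2 at 152672992 to 152673668, with the summit 224 bp downstream of the TSS. Its pileup was 28, its fold 7.07 and its -log10 q 13.6. The COH peak lay at 152673054 to 152673569 within it, with the summit at 383 bp, and had a pileup of 16, fold 4.95 and -log10 q 5.02. The control pileup of 28 was the highest among the members. The fold exceeded that of 84.4% of the control list and of 34.7% of the COH list. The COH peak began 79 bp after the TSS and was classed as 5' untranslated region, and the control peak as promoter.

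Apaf1 had peaks in both retinas that were shifted against each other. The control peak lay on chromosome 10 at 90918598 to 90919171, mostly upstream of the TSS, with the summit at -352 bp. The COH peak lay at 90918369 to 90918955, with the summit at -140 bp. Pileup was 22 in control and 13 in COH, fold 6.72 and 4.75, and -log10 q 10.4 and 3.86. The fold exceeded that of 81.4% of the control list and of 27.6% of the COH list. In RefSeq the gene next to Apaf1 upstream is Ikbip, on the opposite strand. Where these peaks lie relative to the start of Ikbip was not measured.

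Ripk1 had a peak in the control list and none in the COH list. The control peak lay on chromosome 13 at 34186325 to 34186766, with the summit 37 bp downstream of the TSS. Pileup was 14, fold 6.38 and -log10 q 6.76. Its pileup exceeded that of 22.7% of the control list and its fold that of 76.8%. The background implied by these values, computed as (pileup + 1) / fold - 1 in the form of a widely used caller, was 1.35, the lowest of the 11 peaks. The lowest in the control list was 1.18. Within 100 kb of the Ripk1 TSS there was no peak in COH. The nearest, distal and assigned to Serpinb9h, was 627970 bp away.

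The 3 antioxidant genes with a control peak lay close together in fold. Txn1 had its peak on chromosome 4 at 57956170 to 57956816, with the summit at -286 bp, pileup 16, fold 4.57 and -log10 q 4.60. Nfe2l2 had its peak on chromosome 2 at 75534590 to 75535166, with the summit 57 bp downstream, pileup 18, fold 4.52 and -log10 q 5.05. Sod1 had its peak on chromosome 16 at 90017336 to 90018027, with the summit 285 bp downstream, pileup 15, fold 4.51 and -log10 q 4.23. All 3 folds were below the median of the control list, 5.24. Each peak covered its TSS, and none had a COH peak within 100 kb. The nearest COH peaks were 2606148 bp from the Txn1 TSS, 1793217 bp from that of Nfe2l2 and 1508302 bp from that of Sod1, at the promoters of Rad23b, Atp5g3 and Itsn1.

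Sod2 had a peak in the COH list and none in the control list. It lay on chromosome 17 at 13226418 to 13227058, with pileup 14, fold 5.30 and -log10 q 4.96. Its fold was just below the median of the COH list, 5.45, and above that of 45.0% of its peaks. It began 685 bp after the TSS that the list uses, with the summit at 1035 bp. The list gives Sod2 a length of 33218 bp where RefSeq has 10281 bp, so the distance rests on the gene model of the list. The nearest control peak lay 14898 bp from it and was assigned to Wtap, the neighbour of Sod2 on the opposite strand, in whose 5' untranslated region it had a fold of 6.68.

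**Figure D2:**
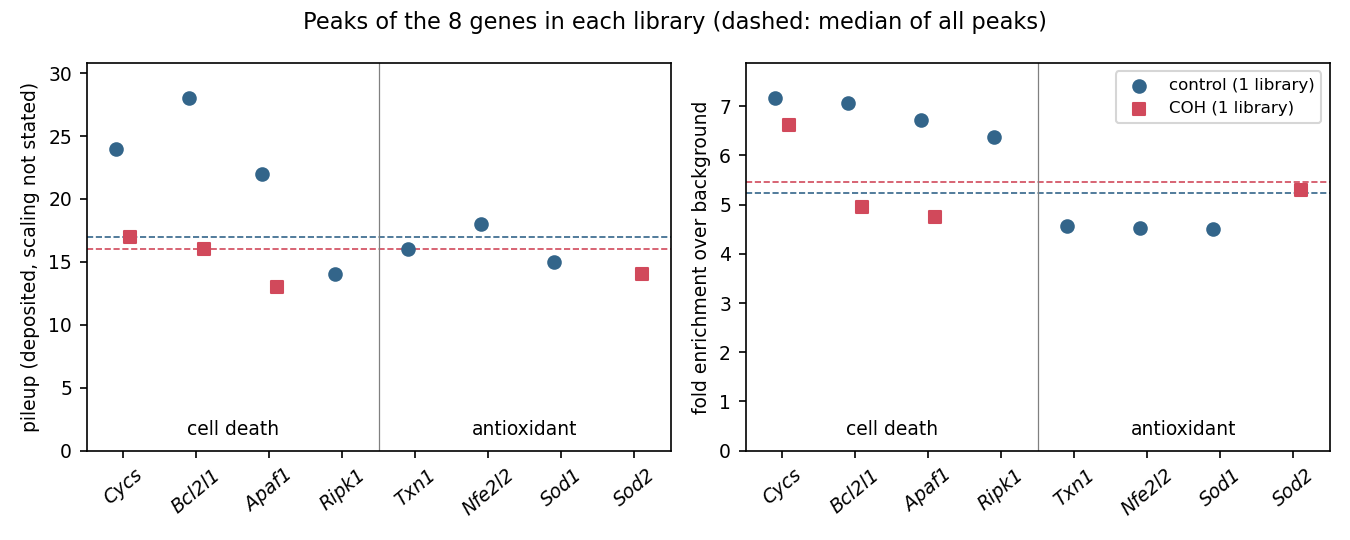
Pileup (left, authors' unit) and fold enrichment (right) of each gene's peak; blue circles are the control library, red squares the COH library, and dashed lines the median of all peaks in the list of that colour. The folds of the death genes in control run from 6.38 to 7.16 and those of Txn1, Nfe2l2 and Sod1 from 4.51 to 4.57, while their pileups, 14 to 28 and 15 to 18, overlap.

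In control retina the 4 death genes had higher folds than the 3 antioxidant genes, with no overlap (6.38 to 7.16 against 4.51 to 4.57), and higher -log10 q (6.76 to 13.6 against 4.23 to 5.05). The pileups overlapped, at 14 to 28 and 15 to 18. Ripk1, with the lowest pileup of the 7, thus had a higher fold than Nfe2l2, with 18. The implied background was 1.35 for Ripk1 and 3.20 for Nfe2l2, 2.72 for Txn1 and 2.55 for Sod1. For Cycs, Bcl2l1 and Apaf1 it was 2.49, 3.10 and 2.42. The antioxidant peaks thus differed from Ripk1 in the implied background and from the other death genes in pileup, 15 to 18 against 22 to 28, while the medians of the control list were 17 for pileup and 2.39 for background. In COH retina Sod2, with a fold of 5.30, lay between Cycs at 6.62 and Bcl2l1 at 4.95, so the groups overlapped there.

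**Figure D3:**
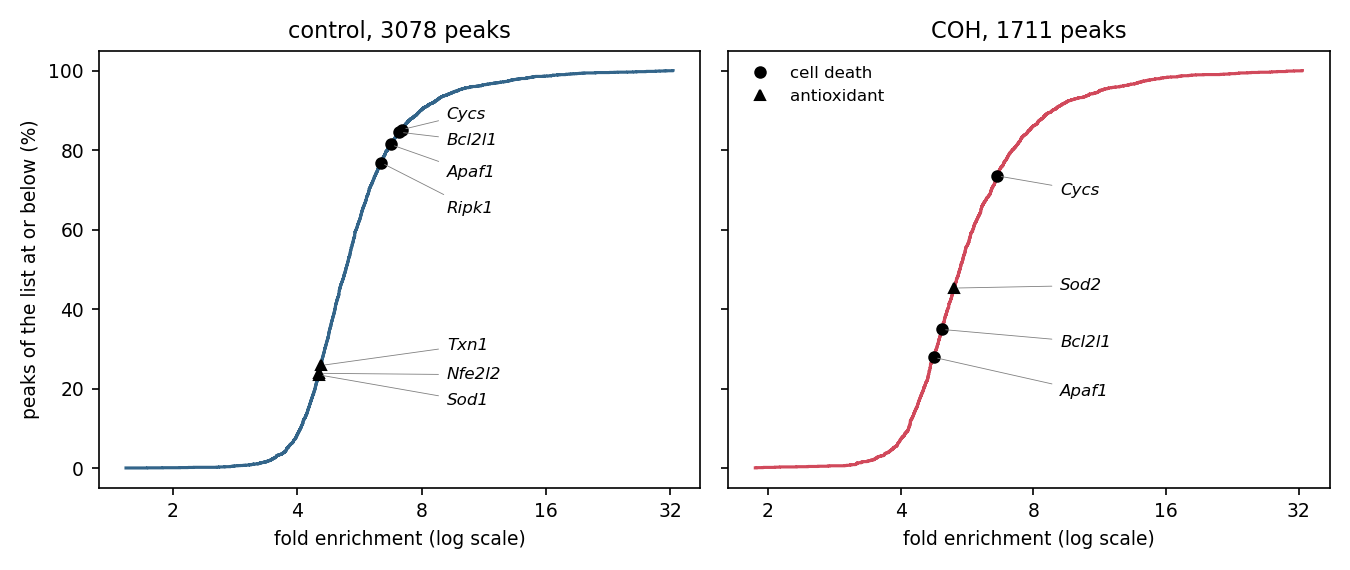
Cumulative share of all peaks at or below each fold (log scale), for the control list of 3078 peaks (left) and the COH list of 1711 (right); circles mark cell death genes and triangles antioxidant genes. In control the circles sit above 76.8% to 85.1% of the list and the triangles above 23.4% to 25.7% of it, while in COH Cycs is the one of the 4 genes above the median.

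A peak was listed for 7 of the 8 genes in control, for 4 of 8 in COH and for 3 of 8 in both. Among all 21900 protein-coding genes the shares with a peak were 10.8% in control, 5.38% in COH and 3.53% in both. The genes were chosen for their peaks, so these counts describe the choice. They also rest on the longer control list: among its 1711 strongest peaks by fold, as many as in COH, 4 of the 8 genes had a peak, against 4 of 8 in COH, and Txn1, Nfe2l2 and Sod1 were no longer listed. Of the 7 control peaks, 3 overlapped a COH peak, all of death genes. Over all control peaks within 1000 bp of a TSS, 31.2% did so. That share varied with fold. Among control peaks near a TSS in the highest of 5 equal bins by fold, which held Cycs, Bcl2l1 and Apaf1, 55.9% (exact 95% interval 49.7 to 62.1) overlapped a COH peak. In the fourth bin, with Ripk1, the share was 36.8% (32.3 to 41.5), and in the second, with Txn1, Nfe2l2 and Sod1, it was 23.1% (19.1 to 27.6). Most control peaks of the strength of the 4 unmatched genes thus had no COH partner. Among COH peaks near a TSS, 67.4% overlapped a control peak, and 64.2% (57.1 to 70.8) did so in the middle bin, which held Sod2. Sites under the caller's threshold are not in the lists and the number of reads is unknown, so an absent peak is not evidence of absent binding.

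The 3 matched pairs differed in how far they coincided. The peaks shared 87.4% of their joint span for Cycs, 76.2% for Bcl2l1 and 44.6% for Apaf1, against a median of 63.0% over 590 overlapping pairs near a TSS. The summits lay 40 bp apart for Cycs, 159 bp for Bcl2l1 and 212 bp for Apaf1. The median over these pairs was 107 bp and the upper quartile 191 bp, so Apaf1 alone of the 3 lay above that quartile.

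The COH peak had the lower pileup and the lower fold in all 3 pairs. The ratio of COH to control pileup was 0.708 for Cycs, 0.571 for Bcl2l1 and 0.591 for Apaf1, where the median over the 590 pairs was 0.824 and 74.7% of pairs had the lower pileup in COH. The ratio of folds was 0.925 for Cycs, 0.701 for Bcl2l1 and 0.707 for Apaf1, against a median of 1.00 with quartiles of 0.869 and 1.15. A ratio as low as that of Bcl2l1 was found in 7.12% of pairs, and as low as that of Apaf1 in 7.80%. Among the 135 pairs with a control fold at least that of Apaf1, a limit set with the values known, the median ratio of folds was 0.873. Ratios as low as those of Bcl2l1 and Apaf1 were found in 22.2% and 24.4% of these pairs. Their median ratio of pileups was 0.708, and 50.4%, 24.4% and 32.6% had one as low as Cycs, Bcl2l1 and Apaf1. Pairs picked for a high control fold thus had lower ratios in general. Neither library has a replicate, so the spread of such a ratio between libraries of 1 group is unknown.

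**Figure D4:**
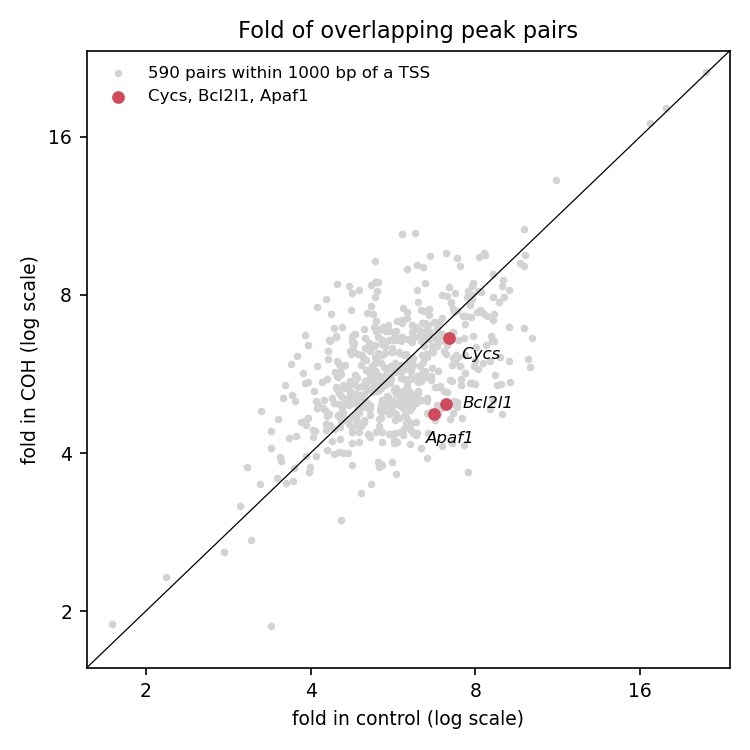
Fold in control (horizontal) against fold in COH (vertical), both on log scales, for the 590 overlapping pairs of peaks within 1000 bp of a TSS (grey) and for Cycs, Bcl2l1 and Apaf1 (red); the line marks equal folds. Cycs lies close to the line, with folds of 7.16 and 6.62, and Bcl2l1 and Apaf1 lie below it.

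For each of these 3 genes the gene with the most similar pair of folds was found among 976 others with overlapping peaks, by the distance of log2 folds over the 2 libraries. It was Mplkip for Cycs (7.18 in control and 6.64 in COH), Nsun6 for Bcl2l1 (6.95 and 4.87) and Ddx20 for Apaf1 (6.64 and 4.80).

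The wider cell death pathway was counted with and without the 4 members. Of 58 genes of apoptosis, necroptosis and other forms of cell death, control peaks marked 8 (13.8%, 6.15 to 25.4) and COH peaks 6 (10.3%, 3.89 to 21.2), intervals that include the 10.8% and 5.38% of all protein-coding genes. Without the 4 members these were 4 of 54 (7.41%, 2.06 to 17.9) and 3 of 54 (5.56%, 1.16 to 15.4), and these intervals include the same shares. In the mitochondrial branch, Bcl2l11, which encodes the BH3-only killer Bim, had a control promoter peak of pileup 30 and fold 5.91, and a second peak 75466 bp downstream in an intron of Gm14009 with a fold of 6.64. The peak assigned to Trp53, the stress-activated tumour suppressor, was distal, at 11932 bp from its TSS, with a fold of 5.87. Endog, a mitochondrial nuclease, had a COH peak in its first exon with a fold of 4.89.

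Among the 18 genes of death receptors and necroptosis, Cyld alone had peaks in both retinas. Cyld removes ubiquitin chains from Ripk1, and its promoter peaks overlapped, with pileup 21 and fold 5.85 in control, and pileup 17 and fold 5.20 in COH. A weaker control peak 517 bp downstream had a fold of 3.72. Tnfaip3, which encodes the ubiquitin editor A20, had a COH peak in its 5' untranslated region with a fold of 4.44. Of the 9 genes of pyroptosis, parthanatos and ferroptosis, 0 had a peak in either list, which allows a share of up to 33.6% by the exact 95% interval.

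In the wider antioxidant pathway, control peaks marked 8 of 58 genes (13.8%, 6.15 to 25.4) and COH peaks 3 (5.17%, 1.08 to 14.4). When both lists were held to 1711 peaks, keeping the highest folds, the order turned, with 2 genes in control and 3 in COH. In the full lists without the members, control peaks marked 5 of 54 (9.26%, 3.08 to 20.3) and COH peaks 2 of 54 (3.70%, 0.452 to 12.7). Again the intervals include the share of all protein-coding genes. Sesn3, which encodes a stress-induced sestrin, was the antioxidant gene with peaks in both retinas. They lay in its start region, shared 17.7% of their joint span, and had folds of 5.90 in control and 5.02 in COH. Gclm, the modifier subunit of the enzyme that limits glutathione synthesis, had a COH peak in its 5' untranslated region with a fold of 4.80. Glrx5, a mitochondrial glutaredoxin, had a control promoter peak with a fold of 3.48.

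Of 17 genes that control Nrf2 or respond to it, control peaks marked 4 (23.5%, 6.81 to 49.9) and COH peaks 0, which allows up to 19.5%. The intervals overlap, and both include the share of all protein-coding genes. Besides Nfe2l2, Nfe2l1, the related factor known for inducing proteasome genes, had a promoter peak with a fold of 5.26. The peak of Fth1, the ferritin heavy chain, began 2204 bp inside the gene with a fold of 3.99, and that of Me1, a source of NADPH, was distal at -9120 bp with a fold of 3.97. Of the 16 dismutase, catalase and peroxidase genes, Sod1 in control and Sod2 in COH were the ones with a peak.

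**Figure D5:**
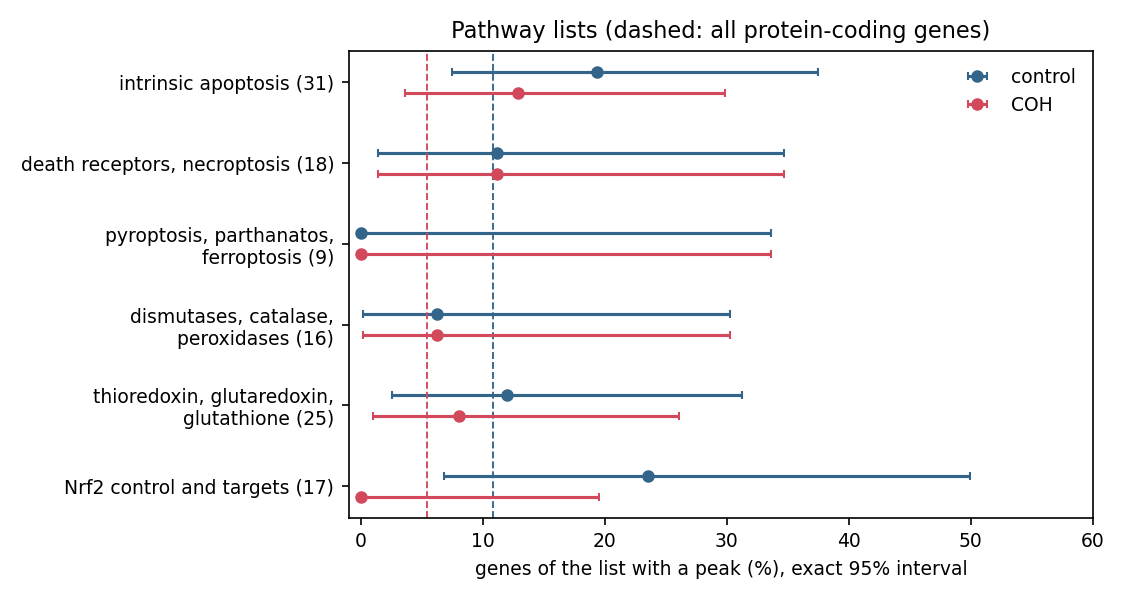
Share of the genes of each pathway list with a peak, members included, in control (blue) and COH (red), with exact 95% intervals that cover counting error only; the number of genes is in brackets, and dashed lines mark the share of all protein-coding genes, 10.8% in control and 5.38% in COH. Each interval includes the dashed line of its colour.

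The peak lists were too sparse at marker genes to check the tissue. The exact 95% interval of each marker list below includes the share of all protein-coding genes, 10.8% in control and 5.38% in COH. Of 10 rod photoreceptor markers, 0 had a peak in either list, which allows up to 30.8%. Of 8 ganglion cell markers, Nefm had a control peak, in its first exon with a fold of 4.99. Of 10 markers of microglia, vessels and pigment epithelium, 3 were in the control list (30.0%, 6.67 to 65.2) and 0 in the COH list. The Cldn5 peak lay in its exon, while those assigned to P2ry12 and Tyr lay in introns of Med12l and Nox4.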

How the data were processed

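CUT&Tag libraries were made with a Rac1 antibody and 15 PCR cycles, per the labels' protocols. The submitters' processing notes name cutadapt 1.9.1, Bowtie2 and mm9. For the peak caller, its background and duplicate handling, nothing is given in the sources used here. Peaks come as 1 list per library and were taken as called so. The authors deposited a signal (pileup) and a fold, a ratio to background, for each peak. They also deposited -log10 significance values, whose 2 headings held a spreadsheet error; place and values identify them as p and q. Positions, annotation class and gene are the authors', per the file headers. The number of reads is unknown.

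Members, gene lists and motifs were chosen with earlier results of these data known. Peaks sharing at least 1 bp counted as overlapping (Python 3.11.15, pandas 2.3.3). The counting was checked on simulated lists with planted overlaps, which says nothing about the real pairs. Shares have exact Clopper-Pearson 95% intervals (scipy 1.17.1), which cover counting error only. They count genes or peaks, not reads, and leave out the spread between libraries, since each group has 1 library. PCR copies are not independent molecules, and the intervals do not allow for them either. Symbols were matched to RefSeq GRCm38.p6, which held all 58 death genes, all 58 antioxidant genes and all 8 promoters. Near a TSS means within 1000 bp. Named genes were the 8 members, every listed gene with a peak (1 is not reported here), and the gene of most similar folds for each member in both lists. The implied background is an assumed form. Alternatives were peaks near a TSS, above the median fold, equal numbers, a -log10 q of at least 5, pairs up to 1000 bp apart, a reciprocal overlap of 50% and rank by pileup.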

Additional observations from a re-analysis of the deposited data

How the results depend on the processing

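No paired analysis was possible because each group has 1 library. Among peaks above the median fold of their list, 4 of the 8 genes kept a peak in control (the death genes) and 1 in COH (Cycs), and the listed genes with a peak numbered 2 for antioxidant genes in control, 1 for death genes in COH and 0 for antioxidant genes in COH. With equal numbers of the strongest peaks by fold, 4 members and 2 antioxidant genes had a control peak, against 4 and 3 in COH. The control list thus no longer held more of either. This cut ranks by fold, in which Txn1, Nfe2l2 and Sod1 were below the control median. With a -log10 q of at least 5, control peaks remained for 5 members (Cycs, Bcl2l1, Apaf1, Ripk1 and Nfe2l2) and 3 antioxidant genes. In COH, peaks remained for 2 members (Cycs and Bcl2l1), 3 death genes and 0 antioxidant genes. The control count of death genes was 8 in these 3 settings, against 6 in COH with equal numbers. Cycs, Bcl2l1 and Apaf1 overlapped between the lists with a reciprocal overlap of 50%, with pairs up to 1000 bp apart and with equal numbers. At the stricter q there were 2 such genes. By pileup in place of fold, Ripk1 ranked above 22.7% of the control list and Nfe2l2 above 50.4%, against 76.8% and 23.7% by fold. Depth is unknown, which limits what an absent peak shows.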
